A study of Homo sapiens with 6 samples.

Results

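Sprouty, SPRED and PEA3 genes, together with PHLDA1, were followed in SW-1990 cells as transcripts that read out the ERK branch of the MAP kinase pathway. The set holds 9 genes: SPRY1, SPRY2 and SPRY4 (Sprouty), SPRED1 and SPRED2 (SPRED), ETV1, ETV4 and ETV5 (PEA3) and PHLDA1. Every probe set annotated with 1 of these symbols alone was taken, which gave 28 of the 54675 probe sets on the array, and each gene was represented by its brightest probe set by mean log2 value on the 6 arrays, a rule applied to all 19775 genes. SW-1990 is an established human pancreatic adenocarcinoma line that was grown from a spleen metastasis. The sh-PRLR cells carried a lentiviral short hairpin RNA against PRLR, the prolactin receptor, and the sh-Ctrl cells a scrambled one. Both were wild-type cells infected with lentivirus and then selected with puromycin (1 μg/ml, over 7 days), and each group gave 3 biological replicates, 1 array each. The labels do not say whether the cells were pools or clones or whether more than 1 hairpin was used, and p-values cover only the spread between these arrays.

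ERK, the last kinase of the RAS, RAF and MEK cascade, induces genes whose products damp the same cascade. Sprouty proteins are such feedback inhibitors and act between receptor tyrosine kinases and RAF, while SPRED proteins bring the RAS inactivator neurofibromin to the membrane. The PEA3 factors ETV1, ETV4 and ETV5 are ETS family transcription factors whose genes are repressed by capicua, a repressor that ERK signalling removes. PHLDA1 encodes a pleckstrin homology-like domain protein, and its transcript is widely used as a readout of MEK and ERK activity. The prolactin receptor, a cytokine receptor that acts mainly through JAK2 and STAT5, can also feed the ERK cascade.

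All values are the deposited log2 expression values, and a difference or change always means sh-PRLR minus sh-Ctrl, with its standard error (SE) where given. A gene is said to rise or fall where the Benjamini-Hochberg adjusted p of a limma fit with intensity-dependent variance was under 0.05 over all genes (or, for single probe sets, over all 41091 probe sets with 1 symbol). By this test 1514 of 19775 genes changed (7.66%), 660 higher (3.34%) and 854 lower (4.32%), so that 43.6% of the calls were higher, against 28.4% when each array was centred on its median. PRLR itself was dim. Its brightest probe set, 227629_at, read 5.63, 5.71 and 5.05 in sh-PRLR cells and 5.75, 5.36 and 5.97 in sh-Ctrl cells, a difference of -0.23 with overlapping groups (limma adjusted p = 0.811 over all genes). The groups did not overlap in 3 of the other 6 PRLR probe sets (206346_at, 216638_s_at and 231981_at), of which 231981_at was the brightest, at 4.70, 4.83 and 4.998 in sh-PRLR and 6.38, 6.27 and 5.77 in sh-Ctrl (-1.30, limma adjusted p = 0.0948 over all probe sets). In those 3 every sh-PRLR array lay below every sh-Ctrl array, as in 11.6% of all probe sets. All 7 PRLR probe sets had a lower mean in sh-PRLR, and none passed. Of 8 markers of epithelial and pancreatic duct carcinoma cells, 6 lay above the median gene level of 7.23. Of markers of cell types that the culture should lack, 6 of 7 for fibroblasts, 3 of 3 for leukocytes and 3 of 4 for endothelial cells lay below that level. The log2 of the summed linear level ran from 16.48 to 16.52 in sh-PRLR and from 16.47 to 16.57 in sh-Ctrl for the epithelial list, and from 8.76 to 8.90 in sh-PRLR and from 8.70 to 8.83 in sh-Ctrl for the fibroblast list. It ran from 6.55 to 7.65 in sh-PRLR and from 6.91 to 7.41 in sh-Ctrl for leukocytes, and from 7.51 to 7.98 in sh-PRLR and from 7.42 to 7.56 in sh-Ctrl for endothelial cells, so that all 4 ranges overlapped. The epithelial cadherin CDH1 fell by -0.17 (limma adjusted p = 0.0284), which passed in 3 of 12 alternative settings, and 0 of the 14 markers of the other cell types passed.

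PHLDA1 rose and SPRED2 fell in sh-PRLR cells, both by small amounts, and the other 7 genes did not pass. That is 2 of 9 genes, 1 in each direction, against 7.66% of all genes in either direction. Only 1 of the 9 genes lay below the median gene level. Calls and separate groups were more frequent above that level: 10.6% of all probe sets there were called, against 4.67% of all probe sets. Of the 17150 probe sets there, 2874 had every sh-PRLR array above every sh-Ctrl array and 3362 had every one below. The 9 changes ran from -0.72 for ETV1 to 0.45 for ETV4 with a median of 0.05, and the median over all genes was 0.00. Without regard to the test, SPRY4, ETV4, ETV5 and PHLDA1 had every sh-PRLR array above every sh-Ctrl array, 4 of 9 genes against 11.7% of all genes. SPRED2 and ETV1 had every sh-PRLR array below every sh-Ctrl array, 2 of 9 against 14.1%, so that 6 of 9 had separate groups, against 25.8% of all genes. With each array centred on its median, ETV5 and PHLDA1 no longer separated, and 0 of 9 genes passed, against 2.55% of all genes. limma with default settings, which shares 1 variance prior over all levels, called 0 of the 9 genes (5 of 9 at an unadjusted p under 0.05, against 16.2% of all genes) and 4 of all genes (0.0202%).

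**Figure D1:**
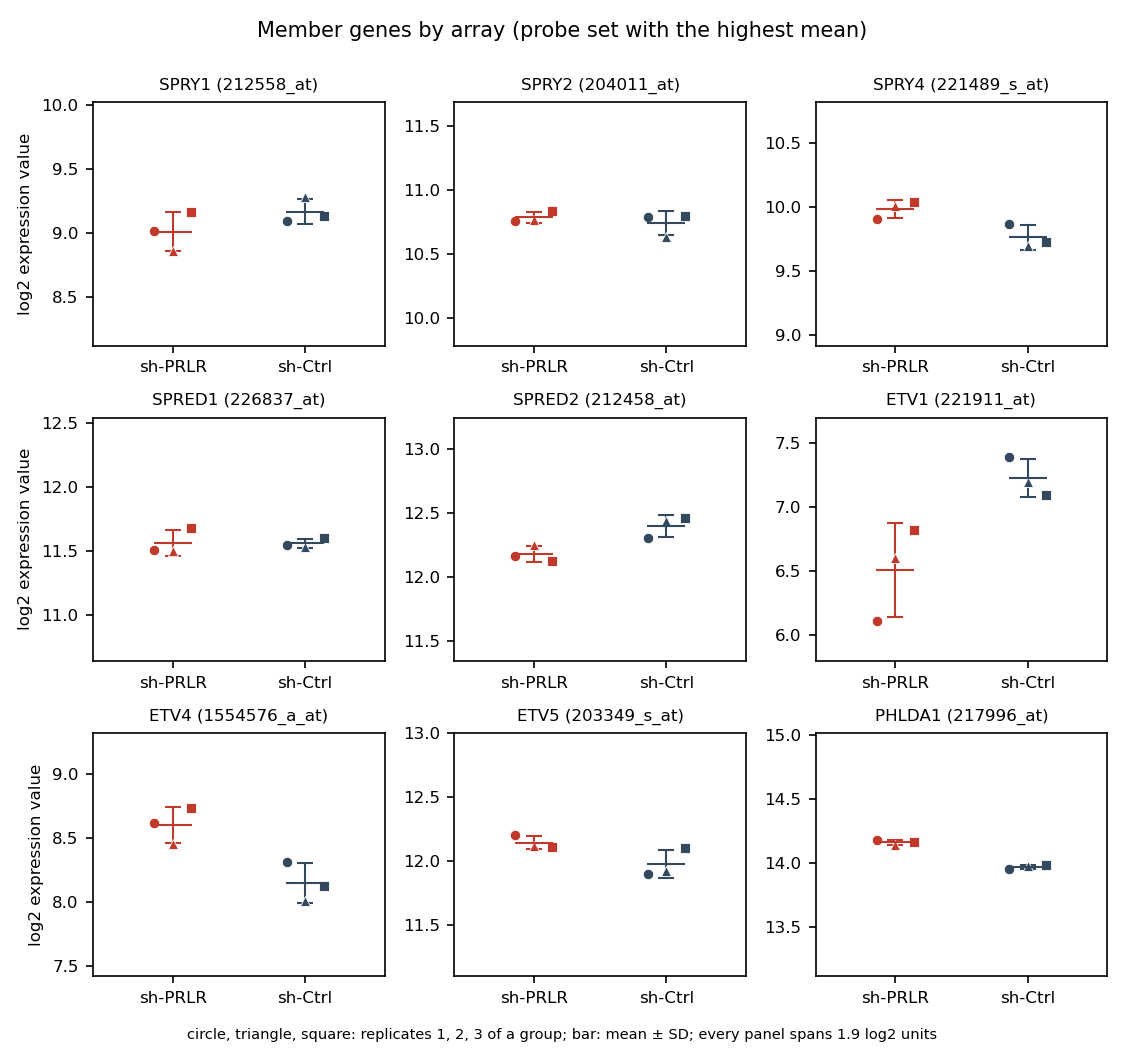
Log2 expression values (y axes, 1.9 log2 units in every panel) of the 9 genes on each array, sh-PRLR left and sh-Ctrl right, with group means and SD as bars. PHLDA1 shows the tightest groups, 14.14 to 14.18 in sh-PRLR and 13.95 to 13.98 in sh-Ctrl, and ETV1 the widest spread, 6.11 to 6.83 in sh-PRLR.

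PHLDA1 was read by 6 probe sets, the most of any of the 9 genes, and 4 of them rose. These were the only calls among the 28 probe sets of the 9 genes, 4 higher and 0 lower. Of all probe sets with 1 symbol 4.67% were called, 2.17% higher and 2.5% lower. The representative probe set 217996_at read 14.18, 14.14 and 14.16 in sh-PRLR cells and 13.95, 13.97 and 13.98 in sh-Ctrl cells. The groups did not overlap, and the gap between them was wider than the range within either. The change of 0.19 (SE 0.04, limma adjusted p = 0.0118 over all genes) is a 1.14-fold higher value, with a 95% interval of 0.11 to 0.27 on the log2 scale, before any adjustment for the number of genes.

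Among the 4 PHLDA1 probe sets that rose, the dimmest had the largest change. It was 218000_s_at, which read 8.96, 8.82 and 8.87 in sh-PRLR and 8.39, 8.498 and 8.39 in sh-Ctrl, a change of 0.46 (limma adjusted p = 0.0333 over all probe sets). For 217998_at the values were 11.10, 10.87 and 10.96 in sh-PRLR and 10.60, 10.62 and 10.64 in sh-Ctrl, a change of 0.35 (limma adjusted p = 0.0203). In both, every sh-PRLR array lay above every sh-Ctrl array. Probe set 225842_at rose by 0.29 (limma adjusted p = 0.0230), also without overlap. By contrast 217997_at, at 12.95, 13.17 and 13.14 in sh-PRLR and 13.06, 13.04 and 13.10 in sh-Ctrl, differed by 0.02 and had the lowest and the highest array both in the sh-PRLR group. The remaining one, 217999_s_at, was higher by 0.18 with overlapping groups and did not pass. PHLDA1 passed in 10 of 13 alternative settings. It did not pass with default settings (limma adjusted p = 0.241), with median centring (0.16, limma adjusted p = 0.5004) or without sh-Ctrl replicate 2 (limma adjusted p = 0.0634). Of the 28 probe sets, 0 passed without sh-Ctrl replicate 1 or replicate 2, 1 without sh-Ctrl replicate 3 and 2 without sh-PRLR replicate 2.

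Promoter sequences from RefSeq (GRCh38.p14) were searched for 5 short motifs tied to this pathway, in the 250 bases before each annotated start and on both strands, and 7 of the 9 genes, all but ETV4 and ETV5, matched the promoter table, with 16 starts. The motifs were the ETS core CGGAAG, the capicua octamers TGAATGAA and TGAATGGA, the AP-1 site TGANTCA and the cAMP response element TGACGTCA, none of which contains another. The ETS core was present in 1 of the SPRY1 windows and in the PHLDA1 window, 47 bases before the start, and occurs in 16.5% of all 35116 windows. TGAATGGA was present 125 bases before 1 of the 6 ETV1 starts, some of whose windows overlap, and occurs in 0.832% of all windows. With 5 motifs searched in 16 windows, a share per window does not tell how often some match would turn up. The other 3 motifs were in 0 of the 16 member windows, and in 1.4% (TGAATGAA), 6.57% (TGANTCA) and 1.65% (TGACGTCA) of all windows. A match of letters is a description of the window and not a measured binding site. The windows of the gene that rose, the gene that fell and the ETV1 start with the octamer are shown 5′ to 3′ on the gene's strand, all on the minus strand, with motif matches in capitals: PHLDA1 at chr12:76031777-76032026, SPRED2 at chr2:65432600-65432849, where no motif was found, and ETV1 at chr7:13991426-13991675.
PHLDA1: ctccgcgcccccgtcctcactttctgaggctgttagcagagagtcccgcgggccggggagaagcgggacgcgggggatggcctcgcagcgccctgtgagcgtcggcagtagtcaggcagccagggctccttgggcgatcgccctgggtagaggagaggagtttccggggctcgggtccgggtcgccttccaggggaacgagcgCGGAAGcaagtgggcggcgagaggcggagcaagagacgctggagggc
SPRED2: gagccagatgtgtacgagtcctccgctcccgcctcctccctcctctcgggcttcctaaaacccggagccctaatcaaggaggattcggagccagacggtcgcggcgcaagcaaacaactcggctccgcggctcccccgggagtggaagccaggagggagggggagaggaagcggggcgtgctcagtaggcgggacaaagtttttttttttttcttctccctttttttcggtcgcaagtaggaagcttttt
ETV1: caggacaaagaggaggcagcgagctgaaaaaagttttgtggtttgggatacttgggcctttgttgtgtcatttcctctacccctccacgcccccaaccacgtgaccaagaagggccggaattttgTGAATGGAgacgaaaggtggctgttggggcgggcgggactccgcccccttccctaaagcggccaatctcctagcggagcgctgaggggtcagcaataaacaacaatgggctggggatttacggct

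Among the Sprouty genes, feedback inhibitors of receptor tyrosine kinase signalling, 0 of 3 passed. SPRY4 was the one with separate groups. Its single probe set, 221489_s_at, read 9.91, 10.01 and 10.04 in sh-PRLR and 9.87, 9.69 and 9.72 in sh-Ctrl. The change was 0.22 (SE 0.08, 95% interval 0.04 to 0.40 before adjustment, limma adjusted p = 0.139), and sh-Ctrl replicate 1 almost reached the lowest sh-PRLR array. SPRY2, which also binds the ubiquitin ligase CBL, read 10.76, 10.77 and 10.84 in sh-PRLR and 10.79, 10.63 and 10.80 in sh-Ctrl. Its groups overlapped, and the difference of 0.05 had a 95% interval of -0.10 to 0.20. SPRY1 was read by 212558_at at 9.02, 8.86 and 9.16 in sh-PRLR and 9.09, 9.28 and 9.13 in sh-Ctrl (difference -0.16, limma adjusted p = 0.484), also with overlap. The second SPRY1 probe set, 230212_at, lay below the median gene level, had the opposite sign (0.47) and did not pass (limma adjusted p = 0.576 over all probe sets).

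The SPRED genes, whose products carry neurofibromin to RAS at the membrane, gave 1 call between them. SPRED2 read 12.16, 12.25 and 12.12 with 212458_at in sh-PRLR and 12.30, 12.43 and 12.46 in sh-Ctrl. Every sh-PRLR array was below every sh-Ctrl array, but sh-PRLR replicate 2 and sh-Ctrl replicate 1 lay close together. The fall of -0.22 (SE 0.06) passed narrowly over all genes (limma adjusted p = 0.0471), and the same probe set did not pass over all probe sets (limma adjusted p = 0.0638). It passed in 3 of 13 alternative settings. The call ended without any single array other than sh-Ctrl replicate 1, with limma adjusted p from 0.0641 to 0.173 in those 5 fits. The other SPRED2 probe sets were dim. Probe set 214026_s_at held 3.20, 2.51 and 2.86 in sh-PRLR and 0.43, 2.56 and 2.67 in sh-Ctrl. Its higher sh-PRLR mean (0.97) came with an sh-Ctrl SD of 1.26, and the mean over all 3 SPRED2 probe sets was higher in sh-PRLR (0.20, limma adjusted p = 0.832) rather than lower.

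SPRED1, the closest relative of SPRED2, gave no call. Its representative probe set 226837_at read 11.50, 11.50 and 11.68 in sh-PRLR and 11.55, 11.53 and 11.60 in sh-Ctrl, a difference of 0.00 with a 95% interval of -0.14 to 0.14. The dimmer 235074_at read 8.504, 8.72 and 8.30 in sh-PRLR and 8.08, 8.03 and 8.22 in sh-Ctrl. Here the groups did not overlap and the difference was 0.40, without passing (limma adjusted p = 0.152 over all probe sets). The third, 244439_at, differed by 0.05 with overlap. Which SPRED1 transcripts each probe set reads was not examined.

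**Figure D2:**
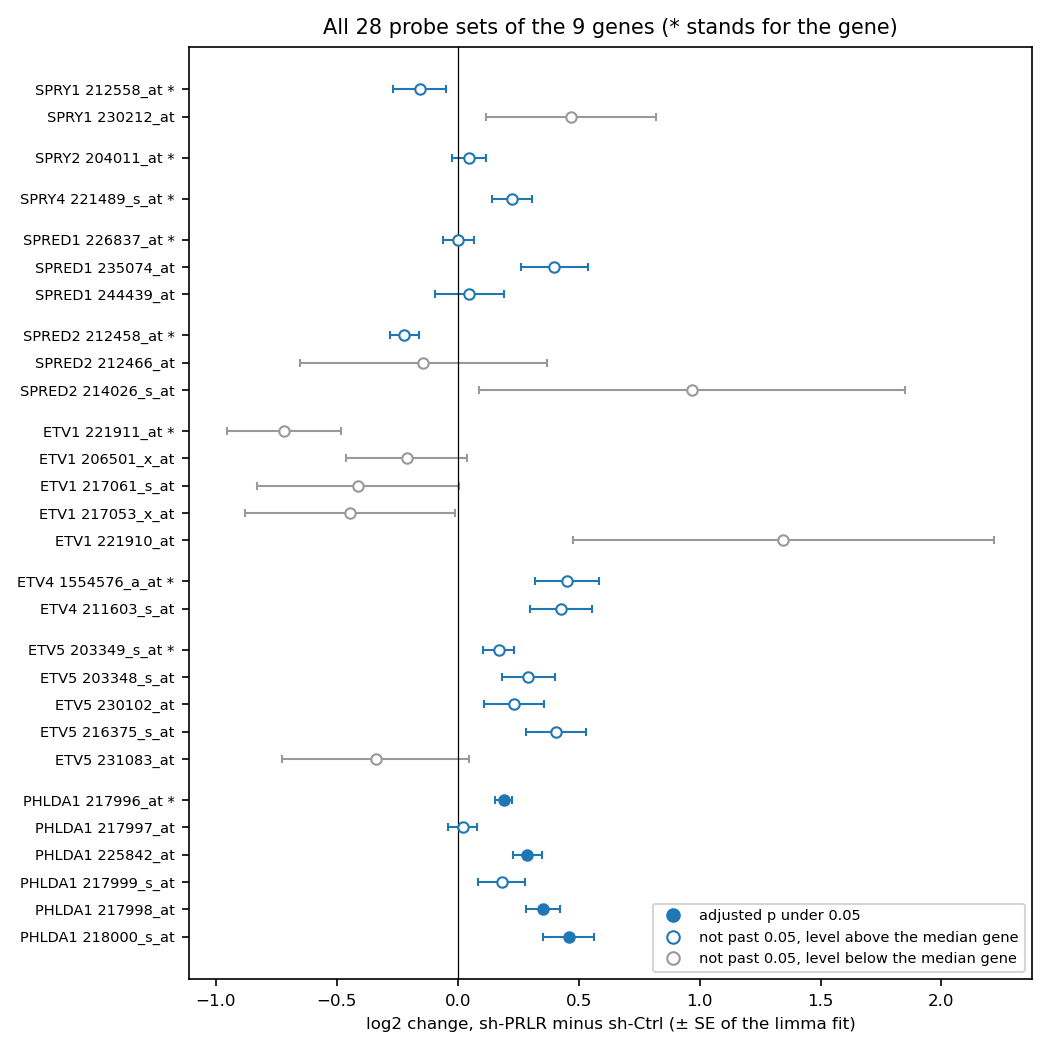
Log2 change, sh-PRLR minus sh-Ctrl, with the SE of the limma fit (x axis) for all 28 probe sets, grouped by gene (y axis), filled where the adjusted p over all probe sets was under 0.05 and grey where the level lay below the median gene level. The 4 filled points are all PHLDA1, and both ETV4 probe sets sit near 0.4.

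The PEA3 genes divided by member: ETV4 and ETV5 were higher and ETV1 was lower in sh-PRLR, and 0 of 3 passed. ETV4 had the largest positive difference of the 9 genes, and its 2 probe sets gave nearly the same value. Probe set 1554576_a_at read 8.62, 8.45 and 8.73 in sh-PRLR and 8.31, 8.01 and 8.12 in sh-Ctrl, a difference of 0.45 (SE 0.13, 95% interval 0.16 to 0.75 before adjustment, limma adjusted p = 0.0679). Probe set 211603_s_at read 8.24, 8.39 and 8.29 in sh-PRLR and 7.80, 7.82 and 8.01 in sh-Ctrl (0.43, limma adjusted p = 0.0988 over all probe sets). In neither did the groups overlap. ETV4 kept its direction in all 13 alternatives, between 0.38 and 0.53, and passed in 1 of them, when the dimmest 40% of genes were left out (limma adjusted p = 0.0364).

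ETV5 was read by 5 probe sets, of which 4 had a higher mean in sh-PRLR. Its representative 203349_s_at read 12.20, 12.12 and 12.11 in sh-PRLR and 11.90, 11.93 and 12.10 in sh-Ctrl. sh-Ctrl replicate 3 almost reached the lowest sh-PRLR array, and the difference of 0.17 did not pass (limma adjusted p = 0.149, and 0.0578 without sh-Ctrl replicate 3). Probe set 216375_s_at was higher by 0.41 without overlap (8.86, 8.99 and 8.88 in sh-PRLR, 8.73, 8.34 and 8.44 in sh-Ctrl), also without passing (limma adjusted p = 0.101 over all probe sets). The differences of 203348_s_at (0.29) and 230102_at (0.23) came with overlapping groups. The fifth, 231083_at, was dim and lower by -0.34, far from passing.

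ETV1, the third PEA3 gene, was dim throughout, each of its 5 probe sets being under the median gene level. The representative 221911_at read 6.11, 6.60 and 6.83 in sh-PRLR and 7.39, 7.20 and 7.10 in sh-Ctrl. The groups did not overlap, and the difference of -0.72 was the largest in size among the 9 genes (SE 0.24, 95% interval -1.25 to -0.18 before adjustment), but it did not pass (limma adjusted p = 0.109). In 3 further probe sets the mean was lower as well, by -0.21 to -0.45, with overlap. Probe set 221910_at was higher by 1.35, its sh-Ctrl values of 4.98, 1.69 and 4.30 spanning more than 3 log2 units. The mean over all 5 probe sets left ETV1 at -0.09.

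**Figure D3:**
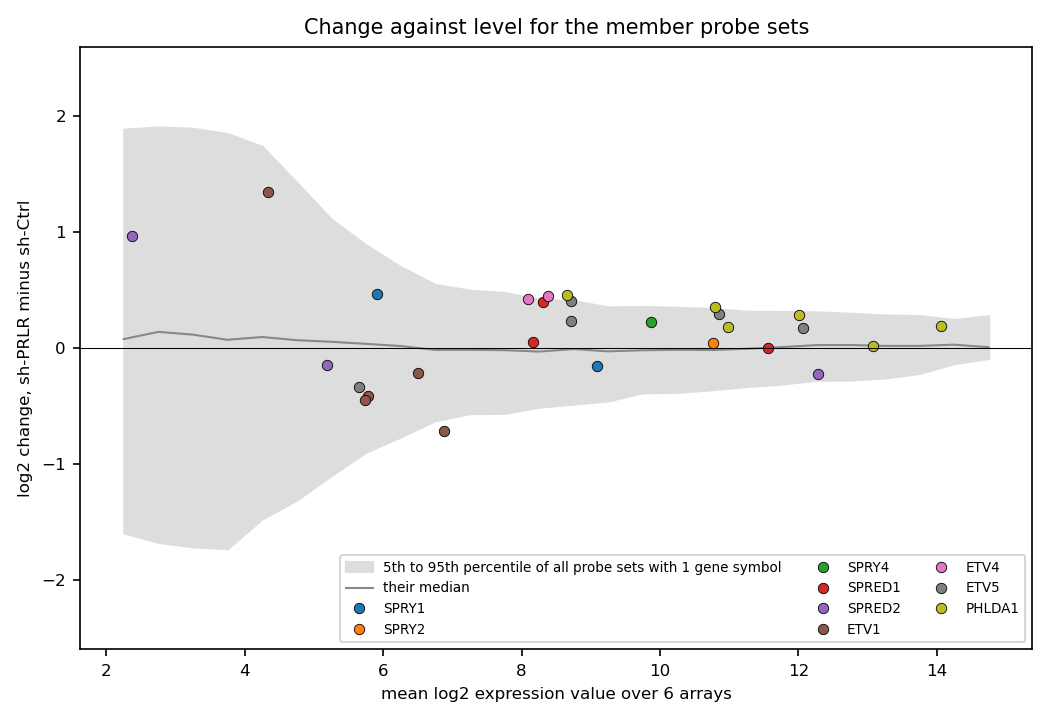
Log2 change (y axis, sh-PRLR minus sh-Ctrl) against the mean log2 value over 6 arrays (x axis) for the 28 probe sets, coloured by gene, over the range that holds the central 90% of all probe sets with 1 symbol (grey band). The band narrows as the level rises, and the PHLDA1, ETV4 and ETV5 points above a level of 8 lie mostly in its upper part or above it.

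Level set how much could be seen. With all genes ranked by level and cut into 4 equal groups, the median SD within groups was 1.15 in the dimmest and 0.0735 in the brightest. Of the 28 probe sets, 9 were dimmer than the median gene, and 0 of these passed, while 4 of the 19 above it did, against 10.6% of all probe sets above it (4.96% for rises alone). In 17 of these 19 the mean was higher in sh-PRLR, against 48.1% of all probe sets above that level. The count was 15 of 19 with median centring, for which the share of all probe sets was not worked out. The median change over all genes was then -0.035, against -0.0013 as reported. Every sh-PRLR array lay above every sh-Ctrl array in 10 of the 28 probe sets (11% of all probe sets) and below in 2 (11.6%), 12 in all (22.6%). All 10 were among the 19 brighter ones (16.8% of all probe sets above the level). With median centring those counts were 8 (7.45%) and 2 (10.8%). Probe sets of 1 gene read the same RNA and are not independent, and 6 of the 19 belong to PHLDA1. With default settings 0 of the 28 probe sets passed, 8 of them had an unadjusted p under 0.05, and 0 of all 41091 probe sets passed (5230, or 12.7%, at an unadjusted p under 0.05).

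The rest of the pathway was read from 7 lists of 64 measured genes. Of these, 10 rose and 5 fell, against 3.34% and 4.32% of all genes. Only 14 of the 64 lay below the median gene level, and calls were more frequent above it (10.6% of all probe sets there). The median change over the 64 was 0.03. With default settings 0 of the 64 passed (22 at an unadjusted p under 0.05, against 16.2% of all genes).

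Of 14 other transcripts known to follow ERK activity, 7 rose and 0 fell, with a median change of 0.29. Of all genes 3.34% rose, and with default settings 0 of the 14 passed. Only 2 of the 14 lay below the median gene level, and 4.96% of all probe sets above it rose. DUSP5, a nuclear phosphatase of ERK, read 12.74, 13.03 and 12.92 in sh-PRLR and 11.49, 11.57 and 11.48 in sh-Ctrl (1.38, limma adjusted p = 9.24e-06). ERRFI1, an inhibitor of EGFR family receptors, rose by 0.46 (limma adjusted p = 1.76e-04), at 13.93, 13.99 and 14.001 in sh-PRLR and 13.52, 13.50 and 13.53 in sh-Ctrl. IER3, an early response gene, rose by 0.62, and FOSL1, an AP-1 subunit, rose by 0.95. In all 4 of these the groups did not overlap. CCND1, also among the 7, rose by 0.25 over all genes (limma adjusted p = 0.0354). The same probe set did not pass over all probe sets (limma adjusted p = 0.0506), and its other one, 208711_s_at, differed by 0.09 with overlap. With median centring 4 of the 14 rose, against 0.723% of all genes under that scaling. DUSP4, another nuclear phosphatase of ERK, did not pass by its representative probe set (0.42, limma adjusted p = 0.0841) but rose by its other 2, by 0.72 with 226034_at and by 1.17 with 204014_at. The mean was higher in 9 of the 14 and lower in 5. The lower ones were EPHA4 (-0.22), FOS (-0.19), TRIB1 (-0.07), EGR1 (-0.05) and MYC (-0.04), and none of them passed. The difference between this list and the 9 genes was not tested.

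**Figure D4:**
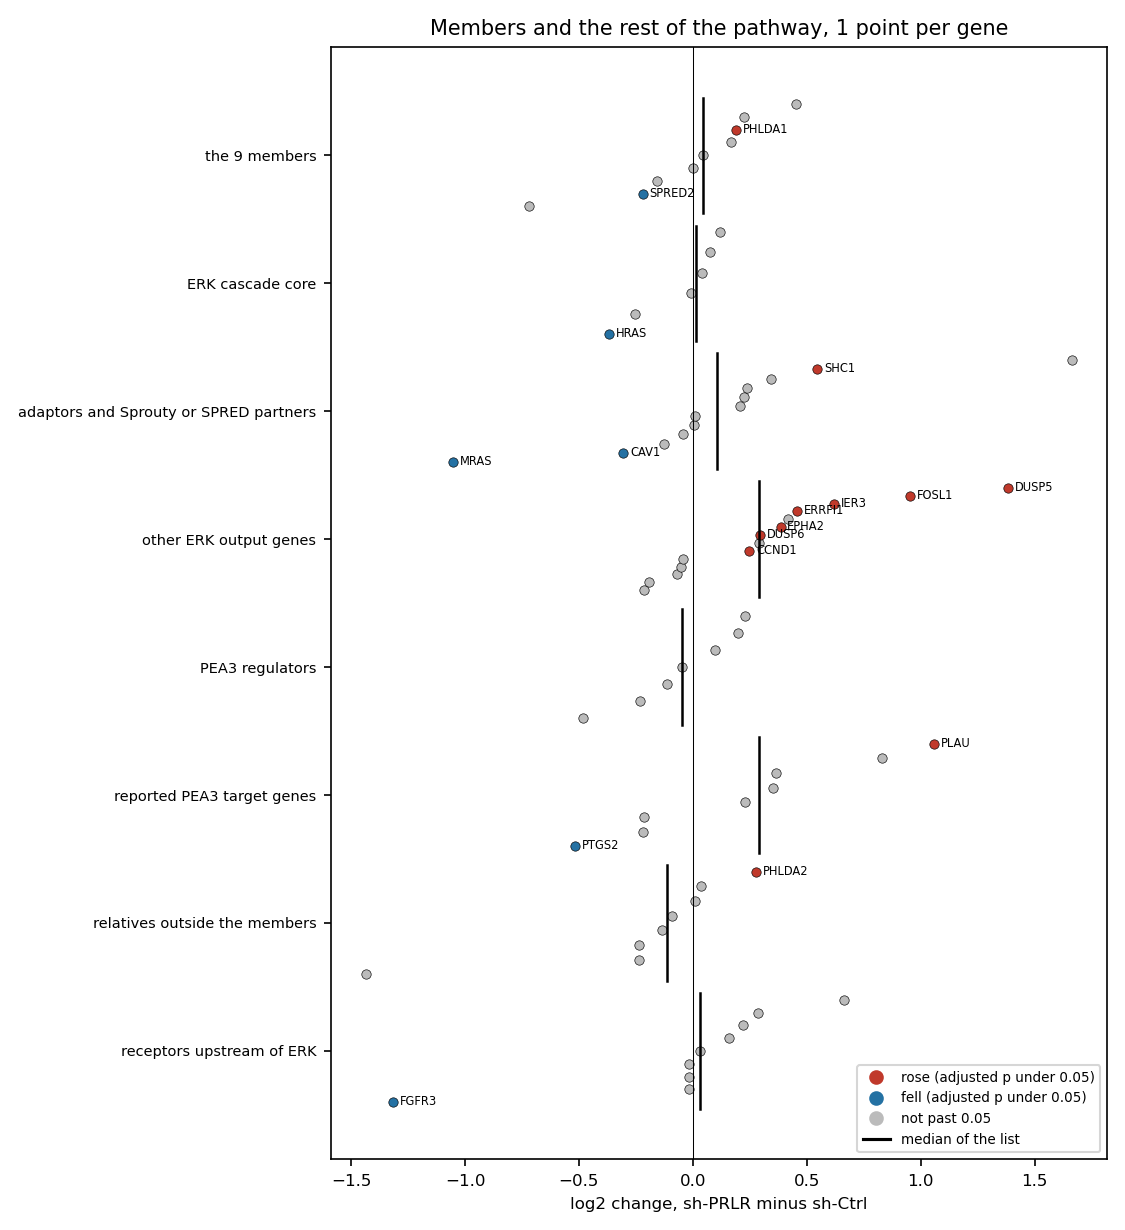
Log2 change, sh-PRLR minus sh-Ctrl (x axis), of each gene of the 7 pathway lists and of the 9 genes (rows), red where it rose, blue where it fell and grey otherwise, with the median of each row as a black line. Rises are most frequent among the other ERK output genes, 7 of 14.

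In the cascade core, 1 of 6 measured genes changed. HRAS fell by -0.37, at 10.09, 10.13 and 9.75 in sh-PRLR and 10.32, 10.35 and 10.40 in sh-Ctrl. It passed narrowly over all genes (limma adjusted p = 0.0498) and passed in 1 of 13 alternatives. Its only probe set did not pass over all probe sets (limma adjusted p = 0.0687).

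Of 12 adaptors and Sprouty or SPRED partners, 1 rose and 2 fell, with a median of 0.11. SHC1, the adaptor that links receptors to GRB2 and SOS, rose by 0.55 (limma adjusted p = 6.11e-04), with arrays at 12.14 to 12.30 in sh-PRLR and at 11.60 to 11.73 in sh-Ctrl. MRAS, a RAS relative that joins SHOC2 in a phosphatase complex acting on RAF, fell by -1.05 (limma adjusted p = 0.00602), with 8.65, 8.19 and 7.86 in sh-PRLR and 9.22, 9.20 and 9.45 in sh-Ctrl. With its probe sets averaged MRAS no longer passed (-0.70, limma adjusted p = 0.175). CAV1, caveolin-1, which binds Sprouty proteins, fell by -0.30 (limma adjusted p = 0.0147) and passed in 7 of 13 alternatives. Its call ended, among others, with median centring (limma adjusted p = 0.126) and without sh-PRLR replicate 2 (limma adjusted p = 0.0615), sh-Ctrl replicate 2 (limma adjusted p = 0.0759) or sh-Ctrl replicate 3 (limma adjusted p = 0.0534). SOS2, a RAS activator, rose by 1 of its 6 probe sets but not by the representative one (0.34, limma adjusted p = 0.0679).

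Regulators of the PEA3 factors gave 0 of 7 calls, with a median of -0.05. The brightest were CUL4A (-0.05, limma adjusted p = 0.704) and DDB1 (-0.23, limma adjusted p = 0.0648), both subunits of a ubiquitin ligase that turns over PEA3 factors together with COP1 and DET1. CIC, the capicua repressor itself (named here after its values were seen), read 8.27, 7.87 and 7.96 in sh-PRLR and 8.34, 8.62 and 8.58 in sh-Ctrl. Its difference of -0.48 kept the groups apart but did not pass (limma adjusted p = 0.0762). ATXN1, another of these 7, went the other way, also with groups apart and without passing (0.23, limma adjusted p = 0.0695). ATXN1L was higher by 0.10 with overlap (limma adjusted p = 0.526).

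Among 8 genes reported as PEA3 targets in tumour cells, PLAU, the urokinase gene, rose by 1.06 (limma adjusted p = 0.00446), at 8.09, 8.33 and 8.35 in sh-PRLR and 6.94, 7.38 and 7.28 in sh-Ctrl. Averaged with its dim second probe set it was higher by 1.69 and did not pass (limma adjusted p = 0.141). PTGS2, cyclooxygenase-2, fell by -0.52 (limma adjusted p = 0.0147) and passed in 7 of 13 alternatives. Its call ended with probe sets averaged (limma adjusted p = 0.128) and without sh-PRLR replicate 2, sh-PRLR replicate 3, sh-Ctrl replicate 1 or sh-Ctrl replicate 2 (limma adjusted p from 0.0549 to 0.0724). The other 6 did not pass, and 6 of the 8 lay below the median gene level.

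Of 8 relatives of the 9 genes, PHLDA2, which shares the pleckstrin homology-like domain of PHLDA1, rose by 0.28 (limma adjusted p = 0.00522), at 13.77, 13.65 and 13.69 in sh-PRLR and 13.45, 13.41 and 13.43 in sh-Ctrl. The PHLDA2 call ended with median centring (limma adjusted p = 0.263), with probe sets averaged (limma adjusted p = 0.490) and without _x_at and _s_at probe sets, where the dim 209802_at stood for it (0.14, limma adjusted p = 0.934). Of 9 receptor tyrosine kinases that feed the cascade, FGFR3 fell by -1.32 (limma adjusted p = 0.00131), at 7.41, 7.54 and 6.99 in sh-PRLR and 8.75, 8.55 and 8.59 in sh-Ctrl, and the other 8 did not pass by their representative probe set. The second FGFR3 probe set was dim, with a higher mean in sh-PRLR (0.81, overlapping groups), and the average of both did not pass (-0.25, limma adjusted p = 0.878). Single probe sets of 2 further receptors did pass. EGFR rose by 201984_s_at, which read 10.98, 11.10 and 11.17 in sh-PRLR and 10.17, 10.15 and 10.18 in sh-Ctrl (0.92, limma adjusted p = 9.38e-05 over all probe sets), and by 201983_s_at (0.92, limma adjusted p = 5.81e-04). Its representative 224999_at read 11.08, 11.48 and 11.41 in sh-PRLR and 11.10, 11.09 and 10.93 in sh-Ctrl, so that the groups overlapped (0.28, limma adjusted p = 0.120 over all genes). IGF1R fell by 203627_at alone among its 5 probe sets (-0.52, limma adjusted p = 0.0472 over all probe sets), and its representative differed by -0.02.

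By Pearson correlation over the 6 arrays among genes above the median level, the profiles most like PHLDA1 were those of TLCD2 (r = 0.99995) and B2M (r = 0.998), both higher in sh-PRLR (0.38 and 0.41). Those most like SPRED2 were RAD1 (r = 0.998) and SKI (r = 0.996), both lower (-0.16 and -0.18). These are the highest of 9886 correlations each, over arrays that share the same group difference, and are given as a description. B2M rose by the test (limma adjusted p = 3.17e-04). TLCD2, RAD1 and SKI did not pass (limma adjusted p = 0.147, 0.164 and 0.0881).

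**Figure D5:**
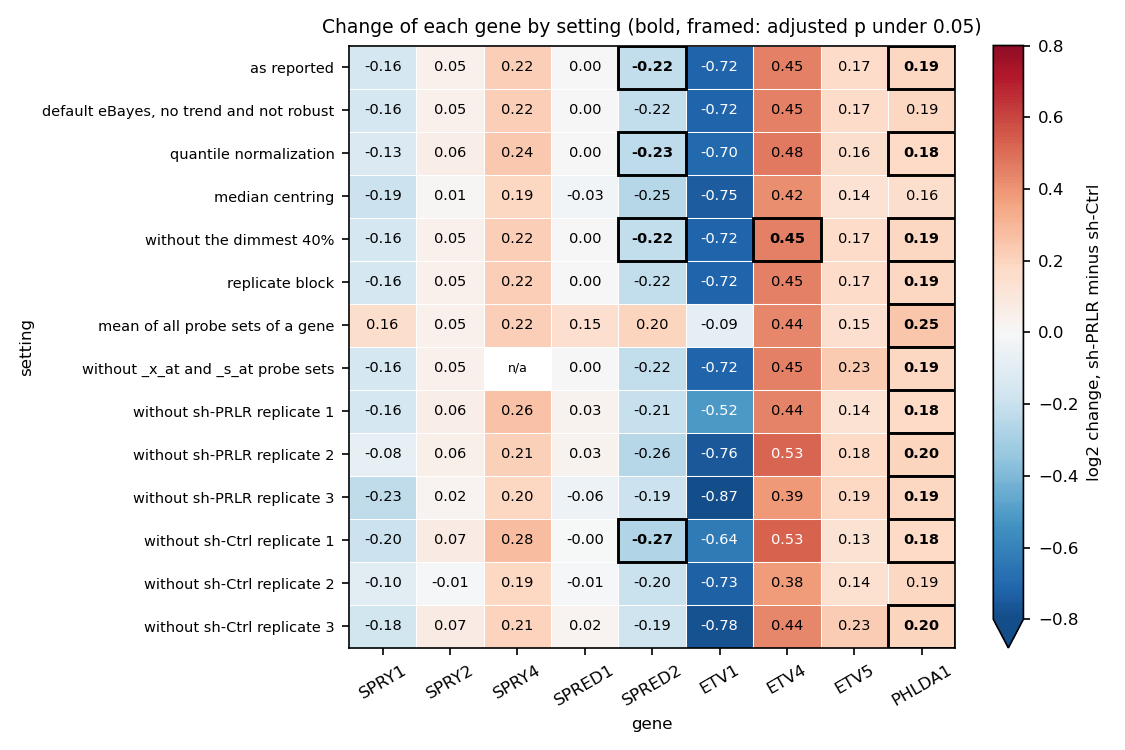
Log2 change, sh-PRLR minus sh-Ctrl (colour and printed value), of the 9 genes (x axis) under the reported setting and each alternative (y axis), bold and framed where the limma adjusted p over all genes was under 0.05. PHLDA1 passed in 10 of 13 alternatives, SPRED2 in 3 of 13 and ETV4 in 1 of 13, and SPRY4 had no value without _x_at and _s_at probe sets.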

How the data were processed

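Total RNA of 6 SW-1990 samples, 3 sh-PRLR and 3 sh-Ctrl, was hybridised to Affymetrix U133 Plus 2.0 arrays after Trizol extraction and biotin labelling, per the labels' protocols, which list several amplification kits and not which one was used. Each deposited number is a log2 expression value. Per the submitters' processing notes, the tools were MAS5, RMA and affy, whose roles and versions are not given in the sources used here. The 2% trimmed mean on the linear scale was 500 on all 6 arrays, so the values were used as deposited. No detection calls were used, and the number of arrays limits the precision.

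Symbols came from the platform annotation. Of 54675 probe sets, 41091 had 1 symbol, 1801 several and 11721 none, and 62 control probe sets were left out. An Entrez lookup in RefSeq changed 0 symbols. The comparison used R 4.3.3 with limma 3.58.1 (lmFit, then eBayes with trend and robust, two-sided, Benjamini-Hochberg over all genes or all probe sets with 1 symbol, threshold 0.05, no block). The fit was also run on simulated data with independent noise and added changes larger than those of PHLDA1 and SPRED2. Those runs cannot speak to changes as small as these or to shifts of a whole array. The 9 genes, the lists, the test and the rule for named genes were chosen with earlier results of these data known. That rule names every member, PRLR, up to 4 genes per list that passed (the 2 brightest where none did), and the 2 most similar profiles. CIC, ATXN1, ATXN1L, DUSP4, CCND1, SOS2, EGFR, IGF1R, EPHA4, FOS, TRIB1, EGR1 and MYC are named outside it, after their values were seen. The plots come from matplotlib 3.10.9 under Python 3.11.15.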

Additional observations from a re-analysis of the deposited data

How the results depend on the processing

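The number of arrays and the scatter of dim probe sets limit these results, and no direct measure of ERK activity was used. Of the 9 genes, 2 passed as reported. With default settings 0 passed (4 of all genes, 0 list genes, 0 member probe sets), and with median centring 0 (504 of all genes, 9 list genes, 0 member probe sets). Averaging the probe sets of each gene left 1 member, 609 of all genes and 8 list genes, and leaving out _x_at and _s_at probe sets left 1 member. No pairing by replicate number was seen (same-numbered arrays correlated at -0.10 to 0.06 in their deviations from the group means, over genes above the median level). The labels do not say whether same-numbered cultures were handled together. With the replicate number as a block, 1 of the 9 genes passed, in place of 2. Leaving out 1 array at a time gave 0 to 2 member genes, 0 to 3 member probe sets (4 as reported), 10 to 18 list genes (15 as reported) and 665 to 1322 of all genes (1514 as reported), with 665 to 948 without any single array other than sh-PRLR replicate 1. The causes were not tested.

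Signs turned in values near 0 or from dim probe sets and in means over probe sets, and none of the turned values passed. With quantile normalization IGF1R was at 0.0045. With median centring SPRED1 (226837_at) was at -0.031 and 217997_at at -0.012. With probe sets averaged SPRY1 was at 0.16, SPRED2 at 0.20, CUL4A at 0.28, SKI at 0.078 and IGF1R at 0.16, and without _x_at and _s_at probe sets CUL4A was at 0.68. Over the fits without 1 array SPRED1 (226837_at) ranged from -0.055 to 0.033, SPRY2 (204011_at) from -0.0081 to 0.075, 217997_at from -0.022 to 0.090, 244439_at from -0.029 to 0.16, IGF1R from -0.058 to 0.038, 212466_at from -0.48 to 0.17, and the PRLR probe sets 243755_at from -0.99 to 0.16 and 211917_s_at from -0.65 to 0.46. Over the 34 genes followed under alternatives, 344 other values kept sign and side of the threshold, 63 no longer passed and 14 newly passed. The counts of separate groups with other scalings were added after seeing the data, as were the fits for CIC, CDH1, SOS2, DUSP4, EGFR, IGF1R and the similar profiles.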
